A study of Mus musculus with 20 samples.

Results

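Transcripts of 6 genes that make, package, recapture and break down dopamine were examined in the mouse striatum: Th, Ddc, Slc18a2, Slc6a3, Maoa and Maob. Each was found by its symbol in the deposited table of expected counts, where each symbol occurred at 1 locus, and the 6 genes are 6 of 26475 loci with a symbol. The RNA came from the whole striatum of 20 male mice aged about 6 months, described in the labels as Collaborative Cross, a mouse population bred from several inbred founder strains. Mice of a line selected for overactivity in the cage and of a control line received d-amphetamine at 25 mg/kg or saline, and tissue was taken 2 hours later. The 4 groups of 5 mice each were overactive line with amphetamine, overactive line with saline, control line with amphetamine and control line with saline, with 1 library per mouse. The founder strains and the number of generations of selection are not given in the sources used here. A line difference and a difference in any other property of the 2 lines cannot be told apart.

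Dopamine is made from tyrosine in a pair of steps, by tyrosine hydroxylase (Th) and aromatic L-amino acid decarboxylase (Ddc), and is pumped into vesicles by the vesicular monoamine transporter VMAT2 (Slc18a2). After release it is taken back up by the dopamine transporter DAT (Slc6a3), or oxidised by the mitochondrial monoamine oxidases A and B (Maoa, Maob). The dopamine neurons that supply the striatum have their cell bodies in the midbrain, and only their axons reach the striatum, so most mRNA of Th, Slc18a2 and Slc6a3 lies outside the dissected tissue. Amphetamine enters dopamine terminals through DAT and acts on VMAT2, and dopamine then leaves the terminal through the transporter.

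The promoters of the enzyme at the first step and of the vesicle transporter are shown because, of the 5 members found in the RefSeq promoter table (all but Maob), these were the ones that held an exact cAMP response element, TGACGTCA. It was searched on both strands, which read the same, in windows from 250 bases before to 50 bases after a start listed in that table. For Slc6a3 the window lay inside the gene span given below and did not reach the first base of that span. Of 32851 such windows in the table, 588 (1.79%) held the motif, and counted by gene 549 of 27025 (2.03%) did. The stretches below run 5′ to 3′ on the gene's strand, from 90 bases before to 10 bases after the RefSeq start on GRCm38.p6, with the motif in capitals. The Th stretch is chr7:142899986-142900085 on the minus strand, with the motif at bases -45 to -38, and the Slc18a2 stretch is chr19:59260788-59260887 on the plus strand, with the motif at bases -4 to 4 (counted without a 0). A match of letters is a description of the window and says nothing about binding in these mice.
Th: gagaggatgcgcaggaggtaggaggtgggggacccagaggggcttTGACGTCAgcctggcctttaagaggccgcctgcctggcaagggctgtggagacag
Slc18a2: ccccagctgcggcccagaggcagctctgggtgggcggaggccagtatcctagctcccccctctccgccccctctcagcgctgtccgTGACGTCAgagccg

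Libraries held 31393788 to 53773028 counts. Values below are CPM, counts scaled to library size with TMM, which sets the bulk of genes equal between libraries, and fold changes are log2 values from 1 edgeR quasi-likelihood fit of 17206 loci. A gene passed at an adjusted p under 0.05 (Benjamini-Hochberg over all 17206 loci). The striatal projection neuron genes were high in every library, with a sum over 10 genes (among them Drd2, Ppp1r1b and Penk) of 4045 to 6450 CPM, so the tissue label was met. Libraries differed in genes of neighbouring regions. The sum of 7 cortical excitatory neuron genes had a median of 584 CPM (range 215 to 1048) in overactive amphetamine mice, 165 CPM (133 to 341) in overactive saline mice, 751 CPM (641 to 922) in control amphetamine mice and 458 CPM (295 to 886) in control saline mice. The sum of 13 thalamic, septal and hypothalamic neuron genes was highest in overactive saline mice 1 (605 CPM) and 4 (515 CPM) and overactive amphetamine mice 2 (510 CPM) and 3 (460 CPM), while all control line libraries lay between 153 and 322 CPM.

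By level, the 6 genes fell into a moderately expressed group of oxidases, a low group of synthesis and storage genes, and a nearly silent transporter. Per kilobase of exon, mean levels over all 20 libraries were 10.1 ± 1.34 CPM per kb for Maoa and 9.63 ± 1.51 CPM per kb for Maob (SD, n = 20). Ddc followed at 4.24 ± 1.30 CPM per kb, Th at 3.37 ± 1.14 CPM per kb and Slc18a2 at 2.53 ± 0.486 CPM per kb, and Slc6a3 came last at 0.0945 ± 0.0476 CPM per kb (SD, n = 20 each). The ranges of neighbours in that order met within 1 SD, except between Slc18a2 and Slc6a3 and between Maob and Ddc. Slc6a3 lay above 4.34% of the loci tested in CPM, while Th, Ddc and Slc18a2 lay above 34.9%, 36.4% and 37.5%, Maob above 53.7% and Maoa above 66.8%.

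Between mice of the same group, Th and Ddc varied more than the median gene of their level. Within groups, the SD of log2 CPM was 0.41 for Th and 0.42 for Ddc, against medians of 0.21 and 0.20 among loci within 1.2-fold of each gene's level. Maoa (0.19, against 0.11) and Maob (0.20, against 0.14) also varied more than the median of loci like them in level. For Slc18a2 the SD was 0.18, against a median of 0.20, and for Slc6a3 it was 0.66, against 0.54. Slc18a2 was thus the gene of the 6 whose SD was below that median.

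**Figure D1:**
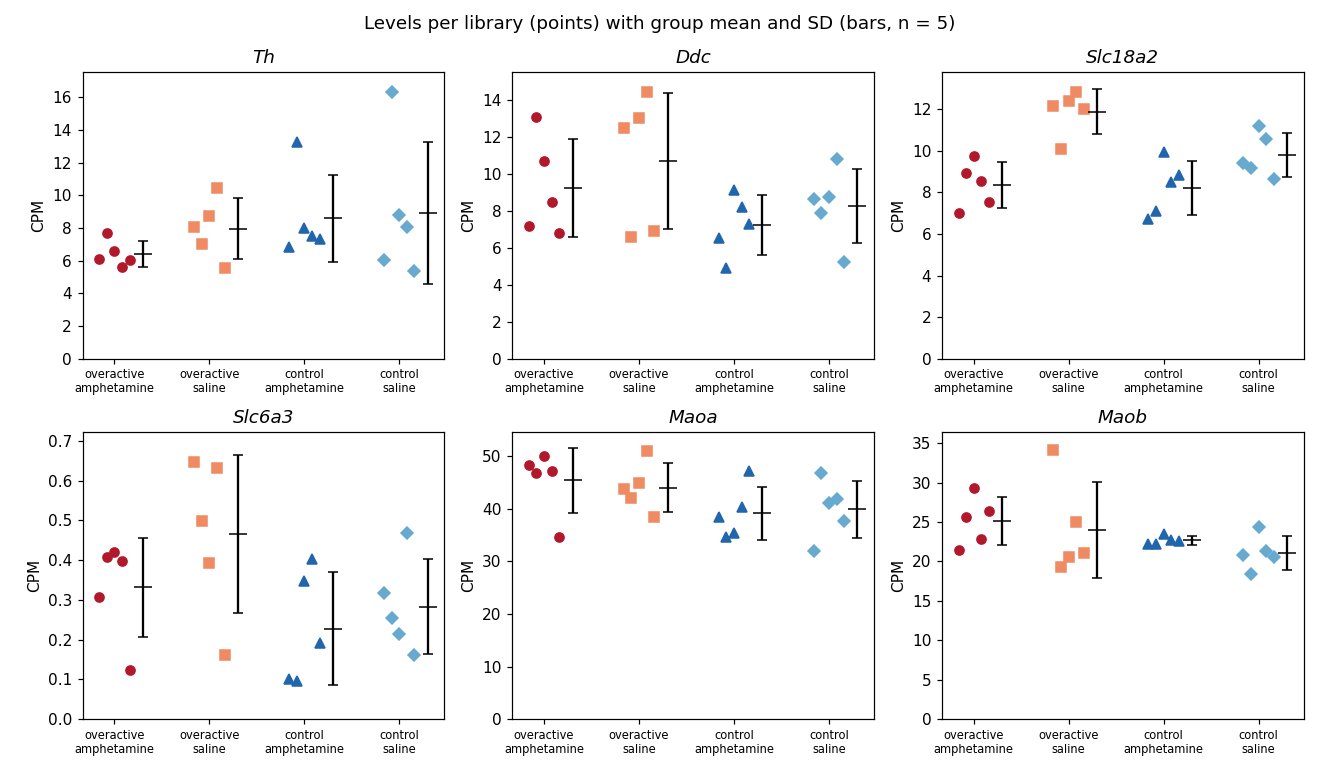
Level of each of the 6 genes in CPM (vertical axis, from 0) in every library, by group on the horizontal axis, with points for the 5 mice of a group and a bar for the group mean and SD. For Slc18a2 all 5 overactive amphetamine mice (7.002 to 9.73 CPM) lie below all 5 overactive saline mice (10.1 to 12.8 CPM), and for Th single mice of the control line stand far above their groups.

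None of the 6 genes passed the edgeR test in any of the 7 comparisons, limma-voom also called 0 of 6 in each, and DESeq2 called Slc18a2 alone, in the amphetamine comparisons given with its values. For amphetamine against saline in the overactive line, in the control line and over both lines, and for the contrast of these responses between lines, 0 of 6 were called, against a background of 0% of loci in each. For overactive against control line, 0 of 6 were called in saline (background 1.11% of loci), 0 of 6 under amphetamine (0.453%) and 0 of 6 over both treatments (7.02%). At an unadjusted p under 0.05, 1 of 6 was counted for amphetamine in the overactive line (Slc18a2, background 8.03%), in the control line (Slc18a2, 5.56%) and over both lines (Slc18a2, 11%), and 0 of 6 for the difference in response (2.96%). For the lines it was 1 of 6 in saline (Slc18a2, 17.3%), 0 of 6 under amphetamine (12.9%) and 1 of 6 over both treatments (Maoa, 25.6%). The fitted log2 fold change of amphetamine over both lines was negative for 4 of 6 genes, with a median of -0.19, against -0.01 over all loci. For overactive against control over both treatments it was positive for 5 of 6 genes, with a median of 0.17, against 0.00 over all loci.

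**Figure D2:**
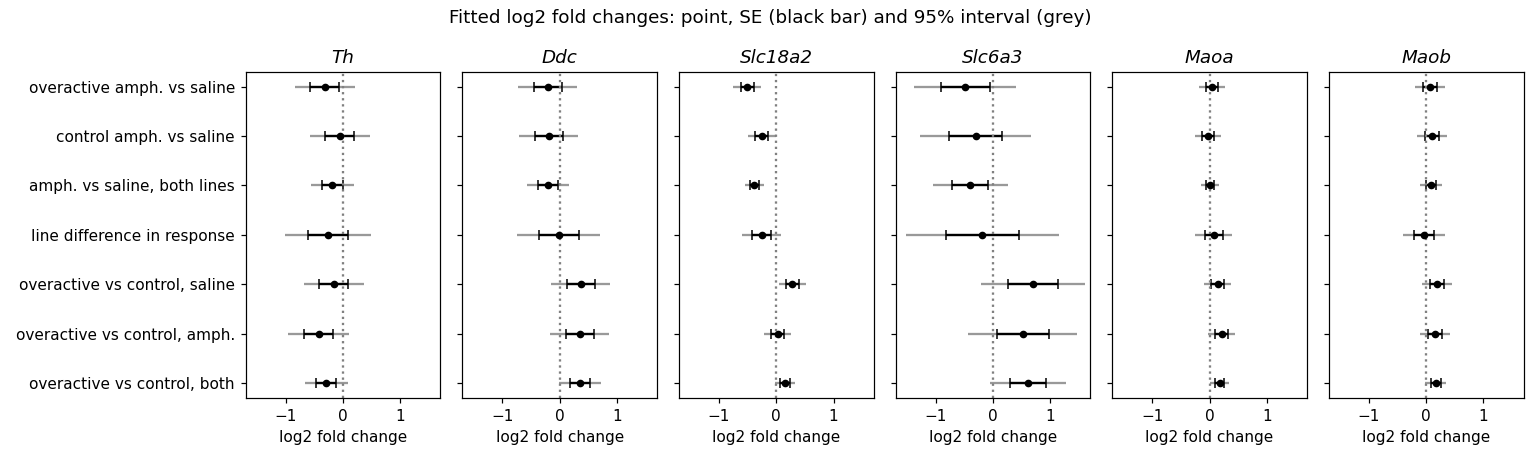
Fitted log2 fold change of each gene (horizontal axis) in the 7 comparisons (rows), with the SE as a black bar and the 95% interval in grey. For amphetamine against saline the Slc18a2 interval is -0.75 to -0.27 in the overactive line and -0.55 to -0.21 over both lines. In the control line the unadjusted edgeR p of Slc18a2 was also under 0.05. The Slc6a3 intervals are the widest.

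Th encodes tyrosine hydroxylase, the rate-limiting enzyme of catecholamine synthesis, and lies on chromosome 7 at 142892779 to 142899995 on the minus strand (GRCm38.p6). The locus counted for Th ran on to 142905039. Overactive amphetamine mice 1 to 5 had 6.10, 7.69, 6.58, 5.60 and 6.02 CPM of Th, and overactive saline mice 1 to 5 had 8.09, 7.04, 8.73, 10.5 and 5.53 CPM. Control amphetamine mice 1 to 5 had 6.87, 13.3, 8.01, 7.52 and 7.32 CPM, and control saline mice 1 to 5 had 6.07, 16.3, 8.81, 8.06 and 5.39 CPM. The groups overlapped in every comparison, and mouse 2 of each control line group stood well above its fellows. Group means were 6.40 ± 0.802 CPM in overactive amphetamine, 7.97 ± 1.85 CPM in overactive saline, 8.60 ± 2.64 CPM in control amphetamine and 8.93 ± 4.35 CPM in control saline mice (SD, n = 5 each). The log2 fold change for amphetamine was -0.32 in the overactive line (SE 0.253) and -0.05 in the control line (SE 0.252), with edgeR adjusted p = 0.825 and 0.986. That of the control line turned to 0.28 without control saline mouse 2 and was -0.26 without control amphetamine mouse 2. For overactive against control over both treatments it was -0.29 (SE 0.178, 95% interval -0.67 to 0.08, edgeR adjusted p = 0.312), and without control saline mouse 2 it was -0.13. In bulk tissue, fewer cells or axons of a type and less RNA in each cannot be told apart, for Th or for any gene below.

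Ddc encodes the decarboxylase that turns L-DOPA into dopamine and 5-hydroxytryptophan into serotonin, and lies on chromosome 11 at 11814101 to 11898144 on the minus strand. Ddc stood at 7.19, 13.1, 10.7, 8.49 and 6.80 CPM in overactive amphetamine mice 1 to 5, and at 12.5, 6.59, 13.02, 14.5 and 6.90 CPM in overactive saline mice 1 to 5. It stood at 6.57, 4.92, 9.17, 8.24 and 7.30 CPM in control amphetamine mice 1 to 5, and at 8.66, 7.91, 8.75, 10.8 and 5.23 CPM in control saline mice 1 to 5. The 4 highest values were all of the overactive line, while the other overactive mice lay among those of the control line, so the groups overlapped. Means were 9.25 ± 2.64 CPM in overactive amphetamine, 10.7 ± 3.69 CPM in overactive saline, 7.24 ± 1.62 CPM in control amphetamine and 8.28 ± 2.03 CPM in control saline mice (SD, n = 5 each). Overactive exceeded control over both treatments by a log2 fold change of 0.36 (SE 0.174, 95% interval -0.00 to 0.72), which did not pass (edgeR adjusted p = 0.199). Of the 4 high Ddc libraries, 3 were among the 4 libraries highest in thalamic, septal and hypothalamic genes, and the line difference in saline, 0.37 log2 (SE 0.245), was -0.02 (SE 0.258) with a cortical gene score as covariate, 0.11 (SE 0.17) with a thalamic, septal and hypothalamic score, and 0.09 without those 4 libraries. The amphetamine fold change was -0.21 in the overactive line (SE 0.244, edgeR adjusted p = 0.91) and -0.19 in the control line (SE 0.246, edgeR adjusted p = 0.931).

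Slc18a2 gave the smallest p of the 6 genes for amphetamine. VMAT2, its product, loads dopamine, noradrenaline, serotonin and histamine into vesicles, and the gene lies on chromosome 19 at 59260878 to 59296012 on the plus strand. Overactive amphetamine mice 1 to 5 had 7.002, 8.94, 9.73, 8.56 and 7.53 CPM of Slc18a2, against 12.1, 10.1, 12.4, 12.8 and 11.99 CPM in overactive saline mice 1 to 5. Control amphetamine mice 1 to 5 had 6.72, 7.13, 9.92, 8.52 and 8.83 CPM, against 9.43, 9.18, 11.2, 10.6 and 8.63 CPM in control saline mice 1 to 5. In the overactive line all 5 amphetamine mice lay below all 5 saline mice, a split that 0.273% of loci showed in that direction, and in the control line the groups overlapped, as did the lines under either treatment. Means were 8.35 ± 1.09 CPM in overactive amphetamine, 11.9 ± 1.06 CPM in overactive saline, 8.22 ± 1.31 CPM in control amphetamine and 9.80 ± 1.05 CPM in control saline mice (SD, n = 5 each).

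The Slc18a2 log2 fold change of amphetamine was -0.51 in the overactive line (SE 0.114, 95% interval -0.75 to -0.27), and missed the threshold at edgeR adjusted p = 0.357. Its unadjusted p of 0.000261 was the fifth smallest of 17206 loci. In the control line it was -0.25 (SE 0.115, edgeR adjusted p = 0.88). Over both lines it was -0.38 (SE 0.081, edgeR adjusted p = 0.202), and the unadjusted p of 0.000146 was the seventh smallest. DESeq2 called the gene in the overactive line (adjusted p = 0.0276, among 40 loci, 0.247% of those with an adjusted p) and over both lines (adjusted p = 0.00577, among 181 loci, 1.41%). The difference between the lines in the response was -0.26 (SE 0.162, 95% interval -0.59 to 0.08, edgeR adjusted p = 0.9999), so a larger response in the overactive line was not shown. Between the lines, Slc18a2 was 0.28 log2 higher in overactive than in control mice given saline (SE 0.114, edgeR adjusted p = 0.217) and differed by 0.02 under amphetamine (SE 0.115, edgeR adjusted p = 0.955).

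Cortical genes moved with the Slc18a2 comparison: 7 of 7 had a positive fold change for amphetamine in the overactive line, with a median log2 of 1.54, and none passed the edgeR test, though 7 of 7 had an unadjusted p under 0.05. With a cortical gene score as covariate, the Slc18a2 fold change was -0.39 in the overactive line (SE 0.142, edgeR adjusted p = 0.9999) and -0.29 over both lines (SE 0.101, edgeR adjusted p = 0.9985). With the 4 libraries highest in thalamic, septal and hypothalamic genes left out, it was -0.57 in the overactive line (edgeR adjusted p = 0.0896) and -0.41 over both lines (edgeR adjusted p = 0.0591). These fits were added after the data were seen. The Slc18a2 locus in the table spans a region shared with Pdzd8, a gene on the opposite strand that was counted on its own line. The pair lie tail to tail with 71 bases between them, and the table's Slc18a2 span, to 59349722, holds the whole of Pdzd8 (59296084 to 59345780). Pdzd8 averaged 109 ± 2.98 CPM in overactive amphetamine, 111 ± 7.62 CPM in overactive saline, 115 ± 6.71 CPM in control amphetamine and 108 ± 4.195 CPM in control saline mice (SD, n = 5 each). The strand setting of the counting is not given in the sources used here, so the split of reads between these genes is uncertain.

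Slc6a3 encodes the dopamine transporter, the uptake protein through which amphetamine enters dopamine axons, and lies on chromosome 13 at 73536128 to 73578672 on the plus strand. Only 3 to 25 counts per library were assigned to it. Overactive amphetamine mice 1 to 5 had 0.31, 0.41, 0.42, 0.40 and 0.12 CPM, and overactive saline mice 1 to 5 had 0.65, 0.50, 0.39, 0.63 and 0.16 CPM of Slc6a3. Control amphetamine mice 1 to 5 had 0.10, 0.10, 0.35, 0.40 and 0.19 CPM, and control saline mice 1 to 5 had 0.32, 0.25, 0.21, 0.47 and 0.16 CPM. Every group overlapped every other. Means were 0.331 ± 0.125 CPM in overactive amphetamine, 0.465 ± 0.1997 CPM in overactive saline, 0.228 ± 0.141 CPM in control amphetamine and 0.283 ± 0.119 CPM in control saline mice (SD, n = 5 each). The log2 fold change of overactive against control over both treatments was 0.61 (SE 0.314, 95% interval -0.04 to 1.27, edgeR adjusted p = 0.228). For amphetamine over both lines it was -0.39 (SE 0.315, 95% interval -1.05 to 0.27, edgeR adjusted p = 0.696). With the cortical score as covariate the amphetamine value was -0.07. With so few counts, and an SD of log2 CPM of 0.66 within groups, both 95% intervals were wide and held 0.

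Maoa encodes monoamine oxidase A, which prefers serotonin and noradrenaline and also oxidises dopamine, and lies on chromosome X at 16619698 to 16687812 on the plus strand. Its levels were 48.3, 46.8, 50.1, 47.1 and 34.7 CPM in overactive amphetamine mice 1 to 5, and 43.9, 42.0, 45.0, 51.0 and 38.4 CPM in overactive saline mice 1 to 5. They were 38.4, 34.6, 35.4, 40.3 and 47.1 CPM in control amphetamine mice 1 to 5, and 32.1, 46.9, 41.1, 41.9 and 37.7 CPM in control saline mice 1 to 5. Overactive amphetamine mouse 5 was far below its 4 fellows, which lay within 4 CPM of each other, and all groups overlapped. Means were 45.4 ± 6.13 CPM in overactive amphetamine, 44.1 ± 4.63 CPM in overactive saline, 39.2 ± 5.01 CPM in control amphetamine and 39.9 ± 5.47 CPM in control saline mice (SD, n = 5 each). Maoa was 0.18 log2 higher in overactive mice over both treatments (SE 0.078, 95% interval 0.01 to 0.34), with an unadjusted p of 0.0358 and an edgeR adjusted p = 0.164. The amphetamine fold change over both lines was 0.01 (SE 0.078, 95% interval -0.15 to 0.17, edgeR adjusted p = 0.981).

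Maob encodes monoamine oxidase B, found mainly in astrocytes and in serotonin and histamine neurons, and lies next to Maoa, tail to tail, at 16709281 to 16817366 on the minus strand of chromosome X, with 21468 bases between them. Maob levels were 21.5, 25.7, 29.4, 22.9 and 26.3 CPM in overactive amphetamine mice 1 to 5, and 34.2, 19.3, 20.5, 24.9 and 21.1 CPM in overactive saline mice 1 to 5. They were 22.3, 22.2, 23.5, 22.7 and 22.6 CPM in control amphetamine mice 1 to 5, and 20.8, 18.4, 24.4, 21.3 and 20.5 CPM in control saline mice 1 to 5. The control amphetamine mice lay closest together, overactive saline mouse 1 was the highest of all, and every pair of groups overlapped. Means were 25.1 ± 3.08 CPM in overactive amphetamine, 24.0 ± 6.07 CPM in overactive saline, 22.7 ± 0.524 CPM in control amphetamine and 21.1 ± 2.16 CPM in control saline mice (SD, n = 5 each). The log2 fold change of overactive against control over both treatments was 0.17 (SE 0.088, 95% interval -0.02 to 0.35, edgeR adjusted p = 0.238). It was -0.00 without the 4 libraries highest in thalamic, septal and hypothalamic genes, of which overactive saline mouse 1 was the highest. For amphetamine over both lines it was 0.09 (SE 0.088, 95% interval -0.10 to 0.27, edgeR adjusted p = 0.778). Of 7 astrocyte genes tested, 6 had a positive fold change for overactive against control over both treatments, with a median log2 of 0.098. Of these 7, 2 passed as higher (background 7.02% of loci). The part of astrocytes in the Maob difference was not tested.

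The line differences over both treatments were refitted with region content in 3 ways, and 0 of 6 genes passed in each. With the thalamic, septal and hypothalamic score as covariate, with the cortical score, and without the 4 libraries, the log2 fold change was 0.08, 0.08 and 0.07 for Ddc and 0.38, 0.37 and 0.28 for Slc6a3. For Slc18a2 it was 0.07, 0.08 and 0.06, and for Maoa 0.11, 0.08 and 0.10. For Maob it was 0.07, 0.17 and -0.00, and for Th -0.46, -0.54 and -0.43.

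Among mice of the same group, Ddc varied with Slc18a2 and with Slc6a3. After group means were removed from log2 CPM, Ddc and Slc18a2 correlated across 20 libraries with Pearson's r = 0.741 and Spearman's rho = 0.743 (permutation within groups, adjusted p over 15 pairs = 0.0018 and 0.0036), and r was 0.704 without the 2 farthest libraries. Ddc and Slc6a3 correlated with r = 0.722 and rho = 0.713 (permutation adjusted p = 0.00443 and 0.00765), and r was 0.664 without the 2 farthest libraries. Th and Ddc had r = 0.288 and rho = 0.514 (permutation adjusted p = 0.367 and 0.0818). Without mouse 2 of each control line group, the pair with the highest Th, r of Th and Ddc was 0.823. Maoa and Maob, neighbours on the X chromosome, had r = 0.01 and rho = 0.075 (permutation adjusted p = 0.965 and 0.762). Slc18a2 and Maob had r = 0.46 and rho = 0.632 (permutation adjusted p = 0.112 and 0.00765), and Slc6a3 and Slc18a2 had r = 0.538 and rho = 0.544 (permutation adjusted p = 0.128 and 0.0818). For the other 9 pairs neither adjusted p was under 0.05.

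These genes also varied with the genes of neighbouring regions. The region lists were chosen for this after the data were seen. The adjusted p covers these 12 relations alone, and not the choice of lists. The score of 12 thalamic, septal and hypothalamic genes correlated with Ddc across the 20 libraries at r = 0.781 and rho = 0.797 (permutation adjusted p over 12 relations = 0.0126 and 0.0066), and r was 0.739 without the 2 farthest libraries. With Slc18a2 it correlated at r = 0.582 and rho = 0.577 (permutation adjusted p = 0.0254 and 0.0218), and r was 0.599 without the same libraries. With Th it had r = 0.57 and rho = 0.716 (permutation adjusted p = 0.0512 and 0.00984), and r was 0.587 without them. With Slc6a3, Maoa and Maob it had r = 0.481, 0.523 and 0.595 (permutation adjusted p = 0.059 each) and rho = 0.492, 0.505 and 0.639 (permutation adjusted p = 0.0493, 0.0493 and 0.0466). The cortical score ran the other way for Ddc (r = -0.539, rho = -0.549, permutation adjusted p = 0.059 and 0.0493) and for Th (r = -0.476, rho = -0.582, permutation adjusted p = 0.059 and 0.0411). For the other 4 genes the cortical score did not pass (permutation adjusted p 0.133 to 0.983 for r and 0.0945 to 0.649 for rho). The part of region content in the correlations of Ddc with Slc18a2 and Slc6a3 was not tested.

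**Figure D3:**
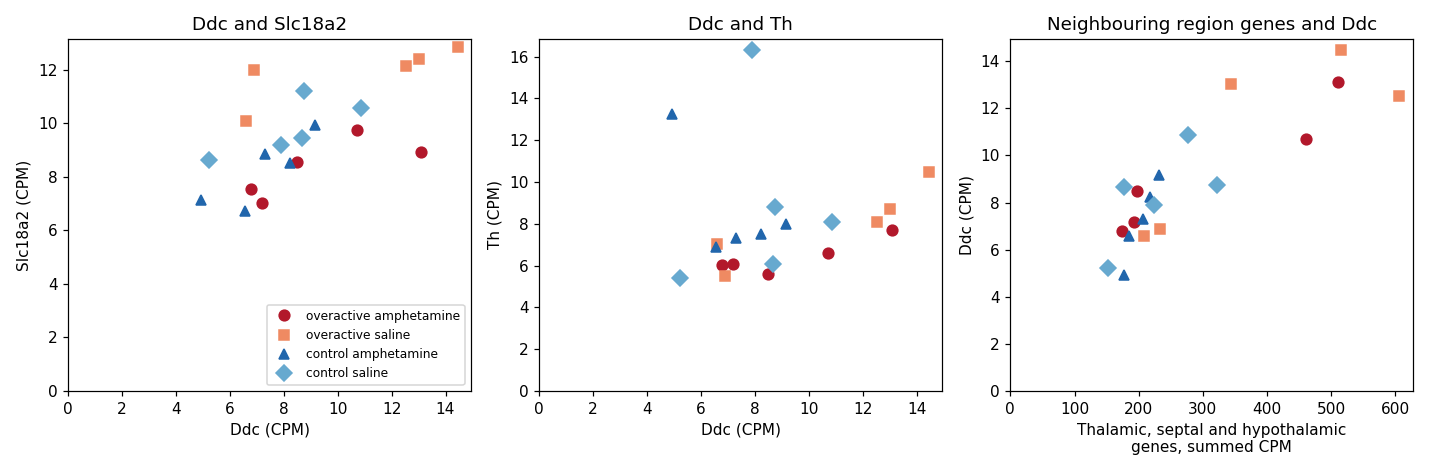
Slc18a2 against Ddc (left), Th against Ddc (middle), and Ddc against the summed thalamic, septal and hypothalamic genes (right), all in CPM with axes from 0 and 1 point per library, by group. In raw CPM, high Ddc goes with high Slc18a2 in overactive saline mice 1, 3 and 4 but not in overactive amphetamine mouse 2 (Ddc 13.1 CPM, Slc18a2 8.94 CPM), a pair of control line mice with high Th stand off the Th and Ddc cloud, and the 4 libraries with sums of 460 to 605 CPM have Ddc between 10.7 and 14.5 CPM.

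By the highest Pearson's r of group-centred log2 CPM over the 20 libraries among 14374 loci, the genes most like each member were as follows, as a description. Ppfia4 (r = 0.925), Klhdc10 (0.922) and Gkap1 (0.914) were nearest to Ddc, and Fam110a (0.832), Asb4 (0.831) and Zfp423 (0.821) to Slc18a2. Arl5a (0.871), Cacybp (0.85) and Fxr1 (0.837) were nearest to Th, and Sesn2 (0.914), Dus2l (0.865) and Ddx24 (0.838) to Slc6a3. Serpinb1b (0.783), Pdcd2 (0.779) and Caml (0.775) were nearest to Maoa, and Lrsam1 (0.81), Slc41a3 (0.809) and Kcnj12 (0.809) to Maob. For Slc6a3 the likeness rests on 3 to 25 counts per library.

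Of 14 genes used to identify midbrain dopamine neurons, 7 passed the filter on low counts. The sum of all 14 was 44.4 to 98.1 CPM per library. Most of it came from Nr4a2, Ret, Slc10a4 and Sncg, which other neurons also express (Nr4a2 in cortex and claustrum, Slc10a4 in cholinergic neurons). Nr4a2 averaged 40.8 ± 20.3 CPM in overactive amphetamine, 16.6 ± 7.53 CPM in overactive saline, 49.97 ± 5.50 CPM in control amphetamine and 33.2 ± 22.3 CPM in control saline mice (SD, n = 5 each). Group means were 10.1 to 16.5 CPM for Ret, 14.6 to 18.8 CPM for Slc10a4 and 3.23 to 7.82 CPM for Sncg. Pitx3, a transcription factor of midbrain dopamine neurons, stayed at or below 0.0775 CPM. Foxa2 was listed at 0 in all 20 libraries, but so were Mbp and Slc1a2, abundant genes of oligodendrocytes and astrocytes, so an exact 0 in the table need not mean absence. The 7 genes of noradrenaline and serotonin neurons summed to 0.688 to 1.499 CPM per library. Dbh, which turns dopamine into noradrenaline, averaged 0.138 ± 0.0509 CPM in overactive amphetamine, 0.14 ± 0.0831 CPM in overactive saline, 0.188 ± 0.0958 CPM in control amphetamine and 0.123 ± 0.0704 CPM in control saline mice (SD, n = 5 each). The serotonin transporter gene Slc6a4 reached at most 0.105 CPM in any library, and Tph2, the serotonin synthesis enzyme of the brain, reached at most 0.816 CPM.

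Among the other 21 genes of monoamine synthesis, transport and breakdown, 16 passed the filter and 1 passed the test, in 1 comparison. For amphetamine over both lines edgeR called 0 of 16 (background 0% of loci), with 0 of 16 at an unadjusted p under 0.05 (11%). There were 4 positive and 12 negative fold changes, with a median log2 of -0.09. Amphetamine gave 0 of 16 at an unadjusted edgeR p under 0.05 in the overactive line (8.03%) and 2 of 16 in the control line (5.56%). For the difference in response it was 1 of 16 (2.96%). For overactive against control, the count at an unadjusted p under 0.05 was 1 of 16 in saline (background 17.3% of loci). It was 3 of 16 under amphetamine (12.9%) and 3 of 16 over both treatments (25.6%). After adjustment edgeR called 0 of 16 in saline (1.11%), 0 of 16 under amphetamine (0.453%) and 1 of 16 (higher) over both treatments (7.02%). That gene was Aldh1a1 (chromosome 19, 20492583 to 20643463). The locus counted for Aldh1a1 began well before that span and ended just past it. Aldh1a1 encodes a retinaldehyde dehydrogenase that also oxidises the aldehyde made from dopamine and marks a subset of midbrain dopamine neurons. Aldh1a1 stood at 46.9, 48.6, 33.7, 27.2 and 41.2 CPM in overactive amphetamine mice 1 to 5, and at 50.5, 26.9, 35.0, 34.2 and 23.8 CPM in overactive saline mice 1 to 5. It stood at 21.0, 24.0, 15.8, 20.5 and 19.6 CPM in control amphetamine mice 1 to 5, and at 22.8, 17.3, 36.5, 16.01 and 24.5 CPM in control saline mice 1 to 5. Under amphetamine all overactive mice lay above all control mice, a split that 1.57% of loci showed in that direction, and in saline the lines overlapped.

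Aldh1a1 was 0.75 log2 higher in the overactive line over both treatments (SE 0.157, 95% interval 0.43 to 1.08, edgeR adjusted p = 0.00789). Under amphetamine alone the fold change was 0.97 (SE 0.223, edgeR adjusted p = 0.0615); it passed with DESeq2 (adjusted p = 0.00265), with only those groups in the fit (edgeR adjusted p = 0.0421) and without overactive amphetamine mouse 4 (edgeR adjusted p = 0.046). It was 0.54 in saline (SE 0.221, edgeR adjusted p = 0.217). The call over both treatments was lost with the cortical score as covariate (0.79, edgeR adjusted p = 0.0643) and without the 4 libraries highest in thalamic, septal and hypothalamic genes (0.61, edgeR adjusted p = 0.0766). Aldh1a1 is also expressed in cells of the brain's linings and vessels. Genes of these cells were read for the lines over both treatments, where 7.02% of all loci passed. Of 6 ependymal genes, 2 passed as higher in the overactive line over both treatments, and the median was 0.70. These 2 were Foxj1 (log2 0.76, edgeR adjusted p = 0.0301) and Ccdc153 (1.21, edgeR adjusted p = 0.019). Of the 6, 5 had a positive and 1 a negative fold change. Rsph1, also an ependymal gene, averaged 11.02 CPM in overactive and 11.22 CPM in control mice given amphetamine. In saline Rsph1 averaged 10.43 CPM in overactive and 12.04 CPM in control mice. The ependymal genes had a median of 1.058 in saline (1 of 6 passed) and 0.315 under amphetamine (0 of 6), beside 0.54 and 0.97 for Aldh1a1. Their sum had medians of 31.5 CPM (range 18.6 to 70.2) in overactive amphetamine, 51.8 CPM (33.5 to 59.7) in overactive saline, 29.6 CPM (15.8 to 42.2) in control amphetamine and 27.7 CPM (27.3 to 43.0) in control saline mice. Of 10 endothelial and mural genes, 2 passed as higher, the mural genes Rgs5 (0.73, edgeR adjusted p = 0.00216) and Abcc9 (0.39, edgeR adjusted p = 0.0317), and the median was 0.10. Of the 10, 8 had a positive and 2 a negative fold change. Pdgfrb, also a mural gene, averaged 20.5 CPM in overactive amphetamine, 20.3 CPM in overactive saline, 20.7 CPM in control amphetamine and 22.1 CPM in control saline mice. The 10 genes had a median of -0.035 in saline (0 of 10 passed, background 1.11%) and 0.238 under amphetamine (1 of 10, 0.453%). Their sum was 210 to 262 CPM in overactive amphetamine, 202 to 231 CPM in overactive saline, 185 to 208 CPM in control amphetamine and 195 to 241 CPM in control saline mice. Summed choroid plexus genes (6 of 6 in the table) had medians of 46.7 CPM (range 35.8 to 935) in overactive amphetamine, 178 CPM (37.6 to 848) in overactive saline, 49.2 CPM (24.5 to 275) in control amphetamine and 137 CPM (28.6 to 755) in control saline mice, and 0 of 6 passed (median log2 0.74, 0 at an unadjusted p under 0.05). Of 6 meningeal and fibroblast genes 0 passed, with a median of -0.04. The part of these cells in the Aldh1a1 difference was not tested.

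For overactive against control over both treatments, Gch1, the first enzyme in the synthesis of tetrahydrobiopterin, the cofactor of Th, had a log2 fold change of 0.05 (SE 0.173, edgeR adjusted p = 0.888). Qdpr, which regenerates that cofactor, had -0.19 (SE 0.129, edgeR adjusted p = 0.362), and Aldh2, a mitochondrial aldehyde dehydrogenase, had 0.08 (SE 0.055, edgeR adjusted p = 0.362).

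**Figure D4:**
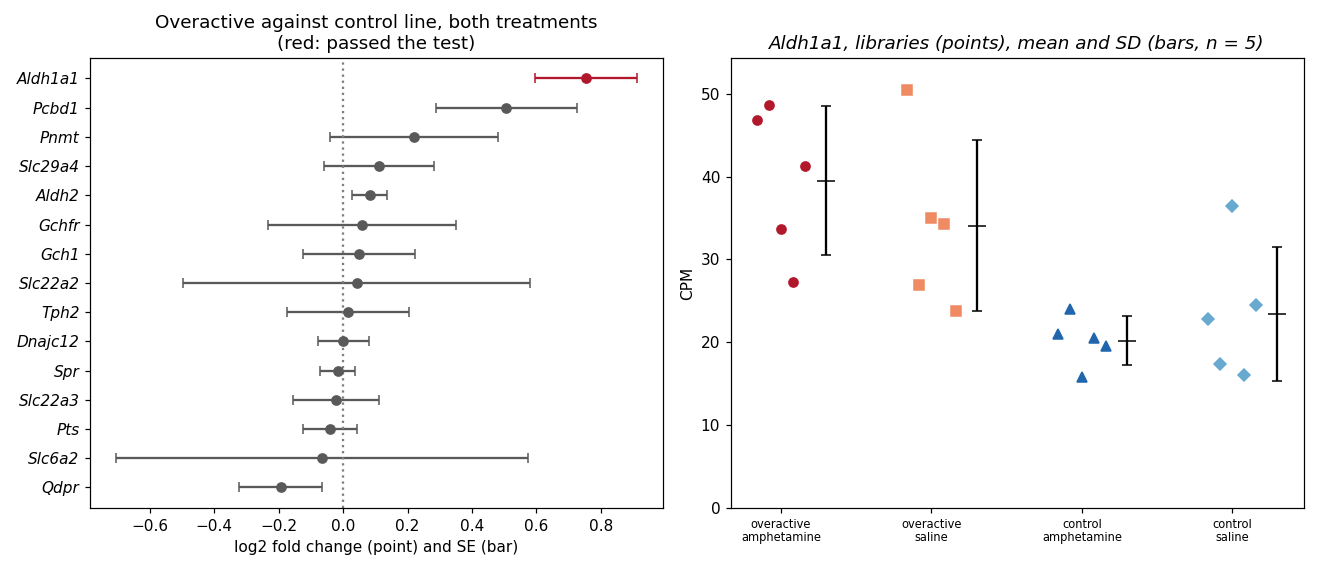
Left, log2 fold change (horizontal axis) with its SE for overactive against control line over both treatments in 15 of the 16 tested genes of monoamine synthesis, transport and breakdown that are not members, with the gene that passed the test in red. Right, Aldh1a1 in CPM (vertical axis, from 0) in every library by group, with group mean and SD; the 5 overactive amphetamine mice sit between 27.2 and 48.6 CPM, above the control amphetamine mice at 15.8 to 24.0 CPM.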

How the data were processed

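Striatal RNA libraries, 1 per mouse, were paired-end sequenced, per the labels. The authors deposited 1 table of expected counts per locus, not scaled between libraries, with 93.9% of values whole within 0.01. Per the submitters' processing notes the builds were mm10 and GRCm38, and the aligner and counter are not given in the sources used here. The 10576 loci without a symbol (0.65% of counts) were left out of library sizes and tests, and 26475 were kept. Library totals of 31393788 to 53773028 counts set the precision.

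Counts were rounded to whole numbers and analysed in R 4.3.3 with edgeR 4.0.16. The filter filterByExpr on the 4 groups left 17206 loci, scaling was by TMM, and all 20 libraries entered a single quasi-likelihood fit of group means. The 7 comparisons are two-sided, adjusted by Benjamini-Hochberg, with a threshold of 0.05. SEs are the fold change divided by the root of F. Gene positions and promoters are from RefSeq GRCm38.p6. Exon lengths are from GENCODE M21. Correlations used log2 CPM (prior count 2) and 100000 permutations within groups. The model was tested on simulated data.

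Alternatives were RLE scaling, no filter, DESeq2 1.42.0, limma-voom (limma 3.58.1), a block for the replicate number, only the groups compared, and leaving out each library. Region gene scores as covariates, their correlations with the members and a fit without 4 libraries were added after the data were seen. The members, lists and tests were chosen with earlier results of these data known. Named genes were the 6 members, the other pathway genes that passed with Gch1, Qdpr, Aldh2, Aldh1a1 and those of noradrenaline and serotonin, and 3 loci most like each member with at least 1 CPM. The mice are separate animals, per the labels. Of the genes this rule takes, 1 is not reported here.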

Additional observations from a re-analysis of the deposited data

Results flagged for a closer look

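In 24 sets of 5 mice (6 genes in 4 groups), 2 held a mouse whose gap to the nearest of the others exceeded Dixon's 95% critical value of 0.71 of the group's range, and chance gives about 1 in 20 such sets. For Th this was control amphetamine mouse 2, at 13.3 CPM, with the other 4 mice of the group at 6.87 to 8.01 CPM. For Maoa it was overactive amphetamine mouse 5, at 34.7 CPM, with the other 4 mice at 46.8 to 50.1 CPM.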

How the results depend on the processing

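Depth limits Slc6a3 most, at 3 to 25 counts per library. edgeR called 0 of 6 members under each of its alternatives, as did limma-voom, and DESeq2 called 1 for amphetamine in the overactive line and 1 over both lines (Slc18a2). DESeq2 called 40 loci for amphetamine in the overactive line, 181 over both lines, and between lines 764 (saline), 322 (amphetamine) and 2095 (all mice). Without the 4 libraries highest in thalamic, septal and hypothalamic genes the same counts were 31, 80, 95, 17 and 323. With the cortical score 23 were called between lines in saline and 196 over both treatments, and with the thalamic, septal and hypothalamic score 46 under amphetamine and 631 over both treatments. Replicate numbers did not pair the mice (same-number correlations -0.232 to 0.247, and 6 of 20 libraries closest to their own number): with the replicate block 51 were called between lines under amphetamine, and with only the groups compared 50. Leaving out single libraries gave 0 to 4 calls for amphetamine over both lines, and between lines 67 to 218 in saline, 23 to 77 under amphetamine and 770 to 1414 over both treatments, with 0 members called.

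Of 420 member and Aldh1a1 fold changes outside the left-out libraries, 26 reversed sign, none past the threshold. With the cortical score, amphetamine gave Th 0.0923 and Ddc 0.212 in the overactive line, Th 0.185, Ddc 0.0172 and Maoa 0.0526 in the control line, and Th 0.138 and Ddc 0.115 over both lines. The same score gave Ddc 0.195 and Slc6a3 0.0403 for the difference in response, Ddc -0.0204 between lines in saline and Slc18a2 -0.0214 under amphetamine. With the thalamic, septal and hypothalamic score, Th was 0.0632 and Maoa 0.0129 in the control line, Slc18a2 -0.0663 between lines under amphetamine and Aldh1a1 0.0506 for amphetamine over both lines. Without the 4 libraries, Maob was 0.119 for the difference in response, -0.0606 between lines in saline and -0.00098 over both treatments, Slc18a2 -0.094 between lines under amphetamine and Aldh1a1 0.112 for amphetamine over both lines. limma-voom gave Th 0.01225 in the control line and Aldh1a1 0.0223 over both lines, RLE scaling 0.000591 and DESeq2 0.00137 for Aldh1a1, and the replicate block 0.00168 for Ddc's difference in response and 0.0148 for Aldh1a1. The cause was not tested.

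With single libraries left out, amphetamine fold changes of Maoa were -0.00289 to 0.127 in the overactive line, -0.102 to 0.0367 in the control line and -0.0292 to 0.0495 over both lines, and Th ranged from -0.26 to 0.28 in the control line. For Ddc the amphetamine value ranged from -0.37 to -0.08 in the overactive line and -0.32 to -0.08 in the control line, for Slc6a3 from -0.71 to -0.27 and -0.61 to -0.04, and for Th from -0.43 to -0.20 in the overactive line. Differences in response ranged from -0.18 to 0.11 for Ddc, -0.45 to 0.13 for Slc6a3 and -0.10 to 0.12 for Maob. Between lines, Th ranged from -0.30 to 0.17 in saline and Slc18a2 from -0.0434 to 0.0974 under amphetamine. Aldh1a1 ranged from -0.0572 to 0.108 for amphetamine over both lines and from -0.328 to 0.00177 in the control line. For Slc18a2, the range was -0.57 to -0.45 in the overactive line (edgeR adjusted p 0.110 to 0.979) and -0.42 to -0.35 over both lines (0.0721 to 0.417).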
